A study of Mus musculus with 6 samples.

Results

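Genes for the subunits of the proteasome were followed in haematopoietic stem and progenitor cells of mice targeted for 2 dopamine receptor genes. They were chosen by name alone: every row of the deposited table whose symbol is Psma, Psmb, Psmc, Psmd or Psme followed only by digits, without the inducible subunits Psmb8, Psmb9 and Psmb10. This gave 40 of the 38926 symbols in the table, 16 for the 20S core (Psma and Psmb) and 24 for its caps and their chaperones (Psmc, Psmd and Psme). Of these, 39 had a mean of at least 1 FPKM over the 6 libraries and entered the test, and Psmb11 did not. FPKM divide reads by gene length and by depth, so the order of different genes rests partly on the length used for each.

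The proteasome is the protease that degrades proteins tagged with ubiquitin. Its 20S core is a barrel of alpha rings, which gate the entrance, and beta rings, which hold the proteolytic sites. The 19S cap binds tagged proteins, removes the ubiquitin and unfolds the chain with a ring of ATPases, and other caps can replace it. Nearly all subunits are made in every cell in fixed proportion, and the transcription factor Nfe2l1 raises their genes together when proteasome activity falls short. Blood-forming stem cells are known for a low rate of protein synthesis and for a sensitivity to misfolded protein.

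The RNA came from LSK cells of the marrow of the femur and tibia, sorted as lineage-negative and positive for Sca1 and cKit, in C57BL/6 mice aged 8 to 12 weeks, with no treatment. The 6 libraries comprised 3 of wild-type label (WT) and 3 whose label is a double knockout of Drd2 and Drd3 (KO). Whether replicates are different animals is not said in the labels, and p-values therefore reflect only how these libraries vary, which may be technical. The FPKM values gave back 5243137 to 7142924 whole reads per library, with 48830 to 71782 of them in the 40 genes. Drd2 was listed at 0 in all 6 libraries. Drd3 was at 0 in the WT-labelled ones but at 1.62, 3.08 and 3.04 FPKM in the KO-labelled ones, the reverse of a simple loss. The labels do not name the targeted exons, so these values could not check the labels. All directions below are between libraries as labelled. The libraries labelled KO replicates 1 and 3 stood apart from KO replicate 2 in the Y-linked gene Ddx3y (0, 0 and 15.1 FPKM). They also did so in the immunoglobulin light chain Igkc (3182, 1173 and 4.93 FPKM). The WT-labelled libraries had Ddx3y at 13.9, 13.3 and 12.5 FPKM and Igkc at 2.48, 2.11 and 1.98 FPKM. Ddx3y was thus absent only under the KO label, so Y-linked RNA and the label are partly confounded. The gate's markers Kit, Ly6a, Cd34 and Ptprc were all present, from 29.5 to 691 FPKM, with Cd34 lower in the KO-labelled libraries (366 to 460 against 659 to 691 FPKM).

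Most subunit genes stood at nearly the same level in both groups. Of the 39 tested, 2 (5.13%) were higher in the KO-labelled libraries and 0 were lower, by limma on log2(FPKM + 1) with an adjusted p under 0.05. Of all 11371 tested genes 10.9% passed this test, 5.48% as higher and 5.43% as lower. The 2 were Psma8, the testis form of an alpha subunit, and Psmd5, a chaperone of cap assembly. Neither belongs to the common mature particle. At an unadjusted p under 0.05, 4 of the 39 were higher, beside 27.5% of all tested genes in either direction. None of the 39 was lower at an unadjusted p under 0.05 or by voom on recovered reads. The median log2 difference of the 39 was 0.02, beside -0.0021 over all tested genes, with 20 values above and 19 below 0. For 32 of the 39 (82.1%) the difference was under 0.2 in size on the log2 scale, against 46.5% of all tested genes. The 95% interval of the difference lay within 0.5 on either side of 0 for 34 of the 39 (87.2%), against 34.5% of all tested genes. These genes were also more precisely measured than most, with a median standard error of 0.11 against 0.16. The median level of the 40 members was 114 FPKM in the WT-labelled libraries. They were set against all tested genes and not against genes of the same level.

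**Figure D1:**
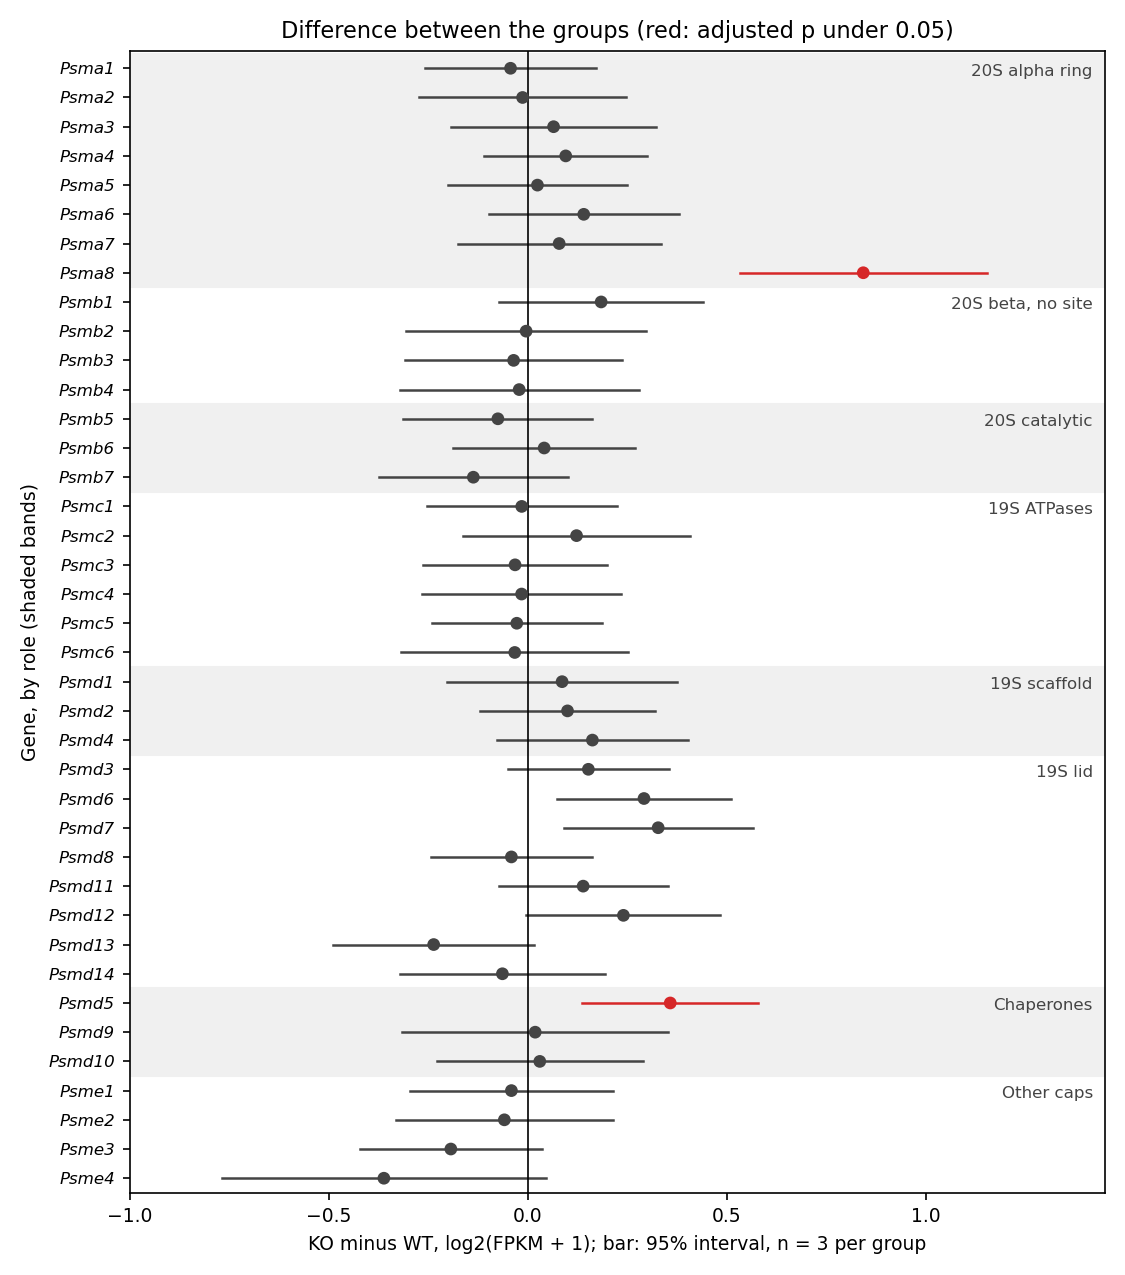
Difference between the KO-labelled libraries and the WT-labelled ones for the 39 tested genes, in log2(FPKM + 1), ordered by role. Points are limma estimates, bars are 95% intervals (n = 3 per group). Most points lie within 0.2 of 0, with Psma8 at 0.84 and Psmd5 at 0.36 in red as the 2 that passed the test.

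Promoters are shown for 5 members, read as the 250 bases before the RefSeq start site in build GRCm38.p6. Psmd5 passed the test, Psmd6 and Psme4 had groups that did not overlap, and Psmb5 and Psmb6 carry proteolytic sites and a match to the element that Nfe2l1 binds. Capitals mark the GC box GGGCGG, the ETS site CCGGAAG and the antioxidant response element core TGACNNNGC, on either strand. In Psme4 a GC box on the reverse strand overlaps the ETS site by 1 base. The windows are chr2:34870963-34871212 (minus strand) for Psmd5, chr14:14120946-14121195 (minus) for Psmd6, chr11:30771525-30771774 (plus) for Psme4, chr14:54617996-54618245 (minus) for Psmb5 and chr11:70525107-70525356 (plus) for Psmb6.
Psmd5: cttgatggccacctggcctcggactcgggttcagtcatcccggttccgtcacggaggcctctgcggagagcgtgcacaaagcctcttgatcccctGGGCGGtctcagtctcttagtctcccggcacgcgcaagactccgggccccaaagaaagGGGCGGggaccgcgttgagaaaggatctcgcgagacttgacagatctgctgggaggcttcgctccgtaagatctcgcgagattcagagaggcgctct
Psmd6: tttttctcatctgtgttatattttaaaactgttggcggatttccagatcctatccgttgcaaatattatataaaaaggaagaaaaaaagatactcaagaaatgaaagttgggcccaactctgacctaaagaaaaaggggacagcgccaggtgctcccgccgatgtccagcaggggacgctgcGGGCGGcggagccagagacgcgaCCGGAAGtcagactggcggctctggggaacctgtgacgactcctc
Psme4: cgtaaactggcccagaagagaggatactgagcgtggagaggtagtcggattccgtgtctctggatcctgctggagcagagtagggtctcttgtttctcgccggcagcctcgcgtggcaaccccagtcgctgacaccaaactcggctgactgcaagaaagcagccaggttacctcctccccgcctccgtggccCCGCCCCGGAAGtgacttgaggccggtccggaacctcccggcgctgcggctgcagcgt
Psmb5: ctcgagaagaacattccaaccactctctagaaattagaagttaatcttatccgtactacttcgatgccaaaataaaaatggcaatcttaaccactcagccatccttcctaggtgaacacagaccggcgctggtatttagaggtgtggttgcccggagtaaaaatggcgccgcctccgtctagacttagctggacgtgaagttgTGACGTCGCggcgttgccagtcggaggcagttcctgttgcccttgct
Psmb6: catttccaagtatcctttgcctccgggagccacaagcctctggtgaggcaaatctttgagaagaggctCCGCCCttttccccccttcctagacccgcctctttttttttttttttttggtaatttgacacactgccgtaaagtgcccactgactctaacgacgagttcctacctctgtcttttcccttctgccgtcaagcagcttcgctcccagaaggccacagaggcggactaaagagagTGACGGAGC
RefSeq start sites were matched for 33 of the 40 genes, with 36 promoters, and not for Psma8, Psmb1, Psmb2, Psmb7, Psmc3, Psmd3 and Psmd7. The ETS site lay in 33.3% of these promoters, against 6.91% of all 32851 promoters of the same length, and the GC box in 58.3% against 32.7%. The antioxidant response element core lay in 13.9% against 10.2%. It was found in Psmb5, Psmb6, Psmc6, Psmd9 and Psmd12. Another 9 motifs were searched on both strands: CCAAT was in 36.1% of the members' promoters against 33.8% of all, CACGTG in 8.33% against 6.02%, TATAAA in 8.33% against 12.4%, the core of the interferon-stimulated response element in 8.33% against 2.98%, the ZNF143 site in 5.56% against 1.67% and the NRF-1 palindrome in 2.78% against 0.782%. TGANTCAGC, TGACGTCA and GGTGGCAAA were in none of the 36, and in 1.02, 1.55 and 0.180% of all. These are letter matches and not sites of binding. The 32851 promoters include those of genes that were not tested here, and no comparison with expressed genes alone was made.

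In the alpha ring, the 7 genes of the common particle (Psma1 to Psma7) ranged from a mean of 72.7 FPKM for Psma3 to 313 FPKM for Psma2. Their reads were close (1843 for Psma3 and 1835 for Psma2 in WT replicate 2), while the lengths used were 3894 and 944 bases. Psma2 was at 271, 332 and 343 FPKM in the WT-labelled libraries and at 322, 329 and 284 FPKM in the KO-labelled ones. Psma2 overlaps AW209491 (mean 24.1 FPKM) on the same strand. The groups overlapped in all 7, and their log2 differences were at most 0.14 in size. Psma4 is the only member within 10 Mb of a targeted gene, 5.54 Mb from Drd2 on chromosome 9. It was at 93.9, 99.3 and 109 FPKM in the WT-labelled libraries and at 108, 105 and 109 FPKM in the KO-labelled ones (log2 difference 0.10 ± 0.09 SE, limma adjusted p = 0.538).

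Psma8 (chromosome 18, 14706151 to 14762301, plus strand) encodes a form of the alpha subunit Psma7 that is known from the testis, where it serves meiosis. It was at 5.87, 5.64 and 6.52 FPKM in the WT-labelled libraries, on 62, 56 and 69 reads. In the KO-labelled ones it was at 10.9, 10.9 and 13.1 FPKM, on 133, 127 and 120 reads. All 3 KO-labelled libraries thus lay above all 3 labelled WT, as in 16.2% of all tested genes. Psma8 rose 1.93-fold, with means of 6.01 ± 0.458 and 11.6 ± 1.27 FPKM (SD, 3 libraries each), with a log2 difference of 0.84 ± 0.14 (SE, limma adjusted p = 0.00696). Psma7 itself was at 149, 165 and 163 FPKM against 184, 180 and 143 FPKM and did not pass (0.08 ± 0.11 SE, limma adjusted p = 0.698). Psma8 made up 3.78, 3.31 and 3.85% of the summed FPKM of the pair in the WT-labelled libraries and 5.60, 5.70 and 8.35% in the KO-labelled ones, so Psma7 remained by far the larger in every library. No stretch of 50 bases of Psma8 occurs in a transcript of another gene in GENCODE M21, and no other gene of the table overlaps it. The call held in 13 of 15 alternatives. It was lost with a covariate for Y-linked RNA (adjusted p = 0.0816) and without KO replicates 1 and 3 (adjusted p = 0.0649), both of which rest on KO replicate 2 alone (limma adjusted p of 0.00504 to 0.0816 over the alternatives).

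Among the beta subunits without a proteolytic site in the finished core, counted here as Psmb1 to Psmb4, Psmb1 was the highest. It was at 260, 301 and 332 FPKM in the WT-labelled libraries and at 353, 353 and 307 FPKM in the KO-labelled ones, with overlapping groups (log2 difference 0.18 ± 0.11 SE, limma adjusted p = 0.330). Psmb2, Psmb3 and Psmb4 differed by at most 0.04 on this scale, in overlapping groups.

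The proteolytic subunits Psmb5, Psmb6 and Psmb7 cut after hydrophobic, acidic and basic residues, respectively, and none passed the test. Psmb5, the target of the drug bortezomib, was at 232, 252 and 284 FPKM against 248, 257 and 223 FPKM (log2 difference -0.07, 95% interval -0.31 to 0.16). Psmb6 was at 182, 203 and 205 FPKM against 216, 211 and 182 FPKM (0.04, -0.19 to 0.27). Psmb7 was at 106, 107 and 109 FPKM against 97.0, 111 and 86.7 FPKM (-0.14, -0.37 to 0.10). The groups overlapped in each, and the intervals leave out a change of 0.5 on the log2 scale in either direction. Psmb7 and Nek6, which was called higher, overlap on opposite strands and share 9.26% of the 50-base stretches of Psmb7, and the library kit does not mark strand. Psmb5 shares more of its sequence, with 54.1% of its 50-base stretches found in 3 other genes, so its reads may be split among them. Psmb11, the thymic form of Psmb5 and its neighbour at a distance of 3.41 kb on chromosome 14, had 0, 1 and 3 reads in the WT-labelled libraries and 1, 5 and 1 in the KO-labelled ones.

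The inducible counterparts, which replace these 3 subunits in immune cells, were abundant. The ratio of Psmb8 to Psmb5 in FPKM was 1.11, 1.15 and 0.953 in the WT-labelled libraries and 1.16, 0.953 and 1.04 in the KO-labelled ones. That of Psmb10 to Psmb7 was 1.70, 1.67 and 1.57 against 2.01, 1.61 and 1.90, and that of Psmb9 to Psmb6 was 0.345, 0.360 and 0.326 against 0.298, 0.231 and 0.246. The last was lower in every library labelled KO. The size of these ratios rests partly on the gene lengths used, such as 1214 bases for Psmb7 against a summed exon length of 3421. That of Psmb8 to Psmb5 also rests on reads of Psmb5 that may be split among other genes. Psmb9 alone was at 62.9, 73.1 and 67.0 FPKM against 64.2, 48.7 and 44.7 FPKM (log2 difference -0.37 ± 0.14 SE, limma adjusted p = 0.116). It passed the test without KO replicate 1 (adjusted p = 0.0294; 0.0294 to 0.318 over the alternatives). Interferon-response genes, which share regulators with Psmb9, summed to 228 to 260 FPKM over 8 genes in the WT-labelled libraries and to 210 to 324 FPKM in the KO-labelled ones. Of the 8, 7 had differences above 0 and 1, Irf1, below. Irf1 was at 104, 102 and 89.6 FPKM against 89.3, 77.7 and 67.8 FPKM, without overlap (log2 difference -0.33, limma adjusted p = 0.106). None of the 8 passed the test, and the part of these genes in the values of Psmb9 was not tested.

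**Figure D2:**
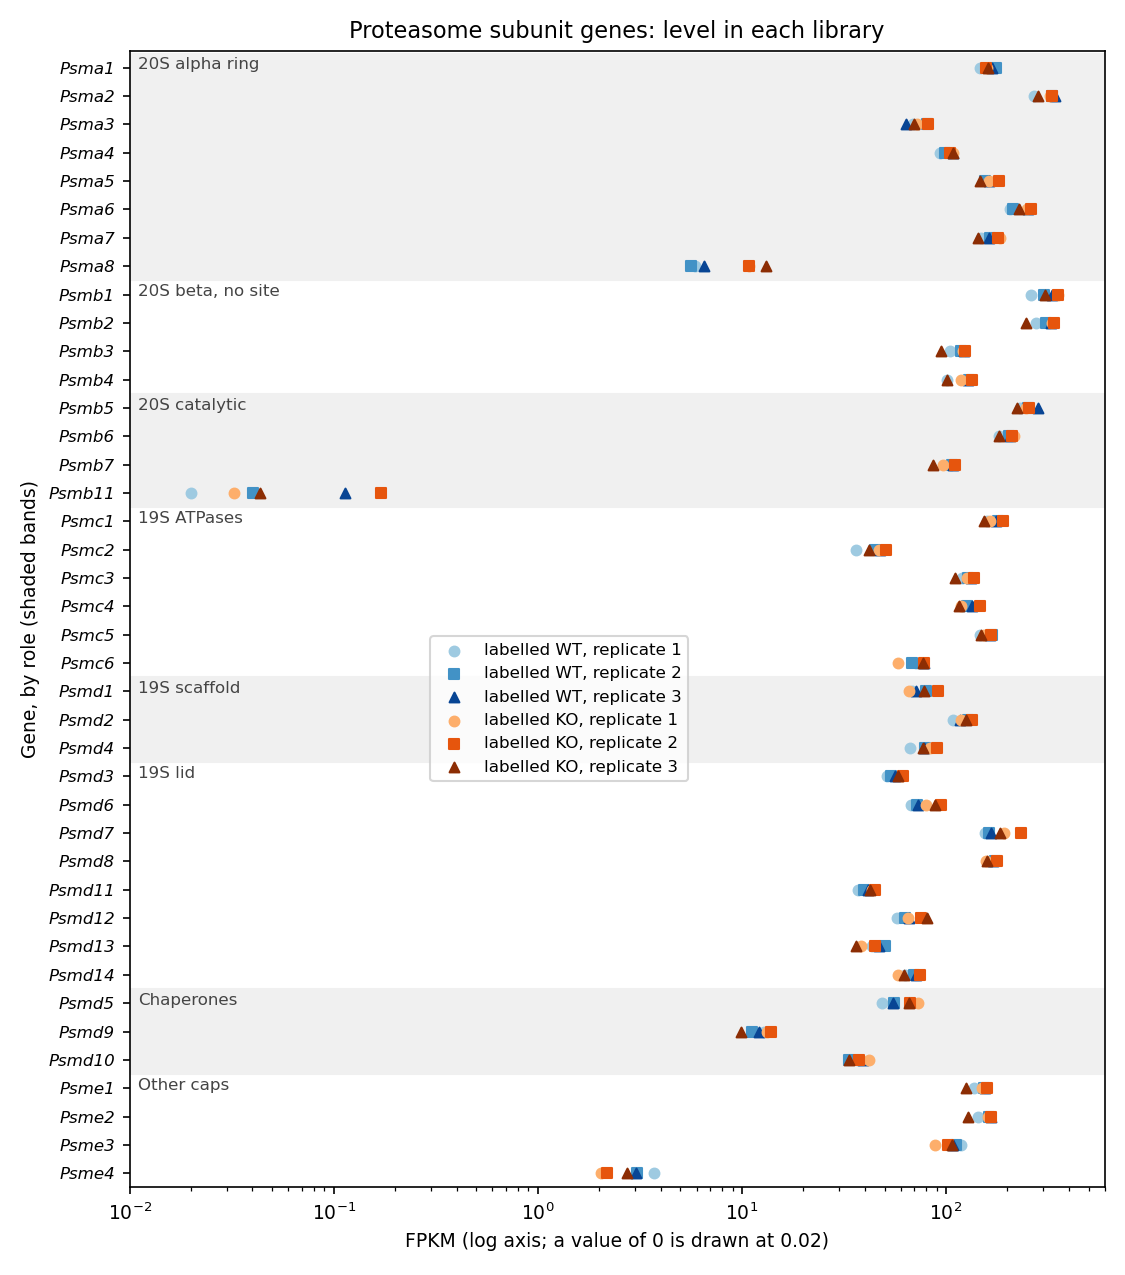
FPKM of the 40 genes in each of the 6 libraries on a log axis, ordered by role, with circles, squares and triangles for replicates 1, 2 and 3. Subunits of the common particle lie between 36.1 and 353 FPKM, while Psma8, Psmd9 and Psme4 lie far lower and Psmb11 is close to 0.

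The 6 ATPases of the cap base (Psmc1 to Psmc6), which unfold substrates, differed little. Their log2 differences ran from -0.03 to 0.12 with overlapping groups throughout, and 5 of the 6 were below 0. Psmc1, the highest, was at 159, 180 and 175 FPKM in the WT-labelled libraries and at 165, 191 and 154 FPKM in the KO-labelled ones. Psmc2 had the largest difference, from 36.1, 45.1 and 47.3 FPKM to 47.1, 50.6 and 42.0 FPKM (0.12 ± 0.13 SE, limma adjusted p = 0.573).

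The base scaffold genes Psmd1 and Psmd2 and the ubiquitin receptor gene Psmd4 had differences of 0.09, 0.10 and 0.16, with overlapping groups. Psmd2 was at 108, 128 and 117 FPKM against 119, 134 and 126 FPKM, and Psmd4 at 66.6, 79.2 and 78.1 FPKM against 83.5, 90.3 and 77.0 FPKM (0.16 ± 0.11 SE, limma adjusted p = 0.360).

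The lid, which carries the deubiquitinase, had genes on both sides. None of its 8 genes passed the test (2 at an unadjusted p under 0.05), and the groups did not overlap in 4 of the 8, all with the KO-labelled libraries above the WT-labelled ones. Over all 39 tested subunit genes 8 (20.5%) had groups that did not overlap, against 32.8% of all tested genes. Psmd7, the inactive partner of the deubiquitinase, was at 155, 162 and 165 FPKM in the WT-labelled libraries and at 192, 232 and 185 FPKM in the KO-labelled ones (0.33 ± 0.11 SE, limma adjusted p = 0.0791). It passed without KO replicate 3 (adjusted p = 0.0352) and without KO replicates 1 and 3 (adjusted p = 0.0349; 0.0349 to 0.216 over the alternatives).

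The other lid genes are named here after their values were seen. Psmd6, whose promoter is shown above, was at 67.8, 72.5 and 73.3 FPKM in the WT-labelled libraries and at 79.9, 94.4 and 88.4 FPKM in the KO-labelled ones (0.29 ± 0.10 SE, limma adjusted p = 0.0871). Psmd3 and Psmd11, the others without overlap, differed by 0.15 and 0.14, and Psmd12 by 0.24 with overlap. Psmd14, the active deubiquitinase, was at 63.2, 69.5 and 71.1 FPKM against 58.2, 74.9 and 62.6 FPKM (-0.06 ± 0.11 SE, limma adjusted p = 0.762). Psmd13, another lid subunit, was at 43.3, 50.2 and 47.1 FPKM against 38.4, 44.7 and 36.2 FPKM (-0.24 ± 0.11 SE, limma adjusted p = 0.210). The ratio of Psmd7 to Psmd14, a pair picked because their values differed, is given as a description only: it was 2.46, 2.33 and 2.33 in the WT-labelled libraries and 3.30, 3.10 and 2.95 in the KO-labelled ones. Neither Psmd6 nor Psmd7 shares a 50-base stretch with another gene.

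Psmd5 (chromosome 2, 34849734 to 34874968, minus strand), Psmd9 and Psmd10 are chaperones that guide assembly of the cap base and leave before the particle is complete. Psmd5 was at 48.7, 55.8 and 55.3 FPKM in the WT-labelled libraries and at 72.7, 67.0 and 65.8 FPKM in the KO-labelled ones, without overlap. The mean rose 1.29-fold, from 53.3 ± 3.95 to 68.5 ± 3.67 FPKM (SD, n = 3 per group; log2 difference 0.36 ± 0.10 SE, limma adjusted p = 0.0468). This call was close to the threshold and held in 4 of 15 alternatives. It was lost without WT replicates 1, 2 and 3 (adjusted p = 0.164, 0.120 and 0.110) and without KO replicates 1 and 2 (0.120 and 0.0790), in a range of 0.0322 to 0.225 over the alternatives, while the difference stayed between 0.30 and 0.39. Psmd9 (12.9, 11.2 and 12.1 FPKM against 13.2, 13.9 and 9.90 FPKM) and Psmd10 (37.0, 33.7 and 39.3 FPKM against 41.8, 37.3 and 33.5 FPKM) overlapped, with differences of 0.02 and 0.03.

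The alternative caps were all on the lower side in the KO-labelled libraries, from -0.04 for Psme1 to -0.36 for Psme4, and none passed the test. Psme1 and Psme2 form the interferon-inducible activator and lie 5.91 kb apart on chromosome 14. Psme2 was at 143, 163 and 166 FPKM against 161, 166 and 128 FPKM, in overlapping groups, and its copy Psme2b, which holds 28.3% of its 50-base stretches, stood at 4.99 to 7.06% of its level. Psme3, the nuclear activator, named after its values were seen, was at 119, 112 and 109 FPKM against 88.2, 102 and 108 FPKM, without overlap (-0.19 ± 0.10 SE, limma adjusted p = 0.257).

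Psme4, the activator known from histone breakdown in testis and in DNA repair, was the lowest subunit of the tested genes. It was at 3.73, 3.07 and 3.02 FPKM in the WT-labelled libraries and at 2.05, 2.19 and 2.75 FPKM in the KO-labelled ones, on 195, 151 and 158 reads against 124, 127 and 125. The groups did not overlap, as in 16.6% of all tested genes with the KO-labelled libraries below, and the difference did not pass (-0.36 ± 0.18 SE, limma adjusted p = 0.233). Psme4 is also the longest member, at 8382 bases. Over all tested genes the median log2 difference was -0.16 for the 929 longer than 8000 bases, -0.08 for the 3522 from 4000 to 8000 bases, and 0.06 and 0.08 for the 3916 from 2000 to 4000 and the 1884 from 1000 to 2000 bases. For the 1111 genes of up to 1000 bases, which include Psma2, Psmb5 and Psmc6, it was -0.0077, so the median did not keep rising as length fell. The part of length in the values of single members was not tested.

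**Figure D3:**
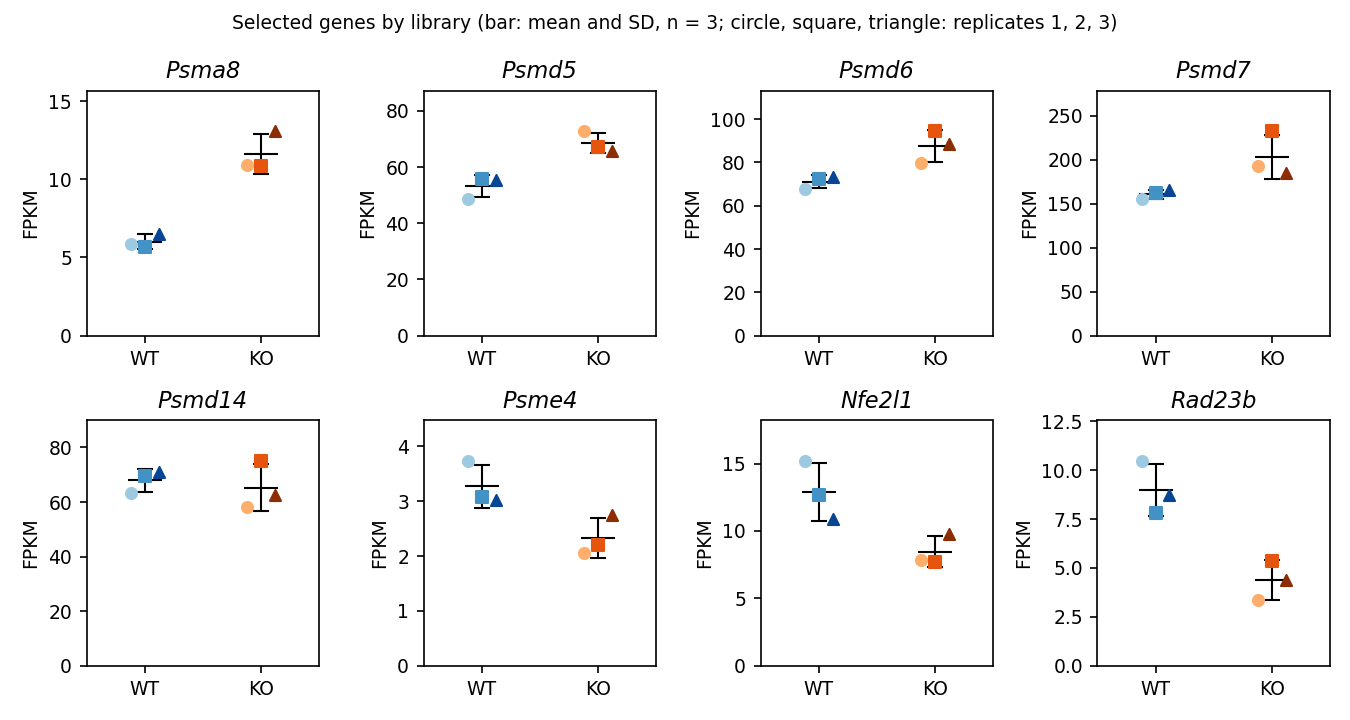
FPKM of Psma8, Psmd5, Psmd6, Psmd7, Psmd14, Psme4, Nfe2l1 and Rad23b in each library, with the mean and SD of 3 libraries per group. The groups are apart in 7 of the 8 panels, most of which show genes picked for that, while 32.8% of all tested genes had groups apart. Those of Psmd14 overlap. Psma8, Psmd5 and Rad23b passed the test and the other 5 did not.

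Many subunit genes were high or low together in single libraries. Among the 38 genes other than Psma8 and Psmb11, the library labelled KO replicate 2 was the highest in 23, that labelled WT replicate 1 the lowest in 16 and that labelled KO replicate 3 the lowest in 15. The median deviation from the WT mean was -0.10, 0.03 and 0.06 in the WT-labelled libraries and 0.03, 0.16 and -0.11 in the KO-labelled ones, on the log2 scale. As a share of all summed FPKM the 38 genes made up 1.14, 1.21 and 1.25% in the WT-labelled libraries and 1.19, 1.29 and 1.19% in the KO-labelled ones, with the groups overlapping. The highest and the lowest share were thus again KO replicate 2 and WT replicate 1. With KO replicate 2 alone against WT, the median difference of the 39 tested genes was 0.16 in place of 0.02.

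**Figure D4:**
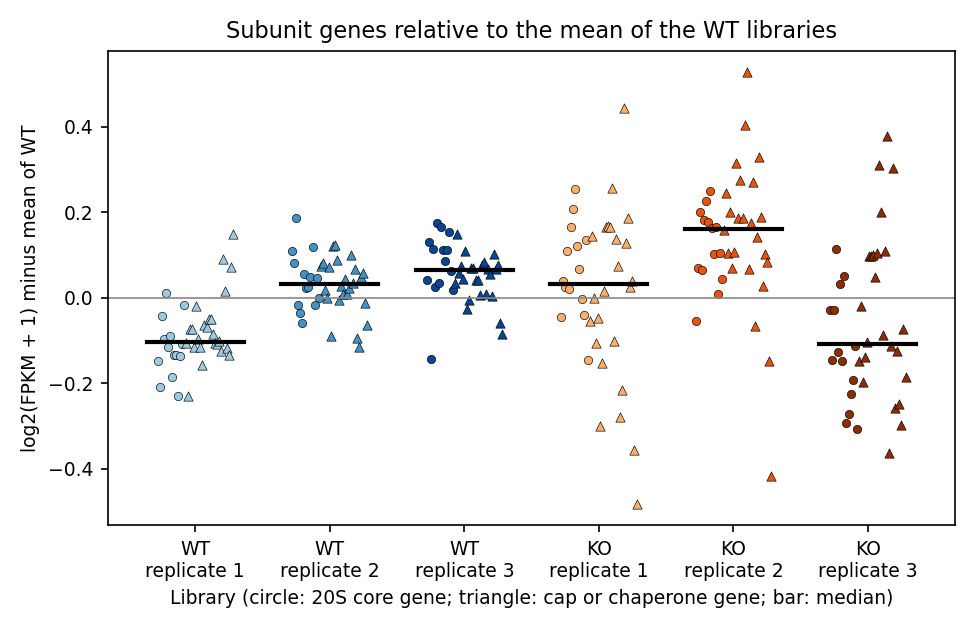
Deviation of 38 subunit genes from the mean of the WT libraries in log2(FPKM + 1), by library as labelled, with circles for the 20S core, triangles for caps and chaperones and a bar at the median. The medians run from -0.11 in KO replicate 3 to 0.16 in KO replicate 2.

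The 14 genes of the common core averaged 169, 189 and 198 FPKM in the WT-labelled libraries and 196, 202 and 170.2 FPKM in the KO-labelled ones. The 17 genes of the mature 19S cap averaged 90.4, 99.3 and 99.3 FPKM and 96.1, 111 and 96.6 FPKM. Core genes thus stood above cap genes by a ratio of 1.86, 1.90 and 1.99 in the WT-labelled libraries and of 2.04, 1.81 and 1.76 in the KO-labelled ones, in overlapping ranges. FPKM depend on the gene length the authors used, which for 21 of the 40 genes was the summed exon length of GENCODE M21. The order of single genes and the size of the ratio of core to cap thus rest partly on that choice. The choice cancels in the ratio of the FPKM of one gene between libraries. It can touch the log2 differences of low genes, through the 1 FPKM that is added, and which genes reach the filter.

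Of 42 further genes of the ubiquitin-proteasome pathway 41 were found and tested, and 1 (2.44%) passed, as lower in the KO-labelled libraries, with 0 higher, beside 10.9% of all tested genes. At an unadjusted p under 0.05 there were 8, of which 3 were higher and 5 lower, beside 27.5% of all tested genes. The median log2 difference of the list was 0.01. The gene that passed was Rad23b, a shuttle that carries tagged proteins to the cap. It was at 10.4, 7.83 and 8.71 FPKM in the WT-labelled libraries and at 3.34, 5.38 and 4.37 FPKM in the KO-labelled ones (-0.91 ± 0.18 SE, limma adjusted p = 0.0159). The call was lost without WT replicates 1 and 3 (adjusted p = 0.0704 and 0.0581), without both KO replicates 1 and 3 (0.120), with no filter on low values (0.0565) and with the covariate for Y-linked RNA (0.178; 0.00441 to 0.178 over the alternatives). Nfe2l1 was at 15.2, 12.7 and 10.9 FPKM against 7.87, 7.71 and 9.79 FPKM, without overlap, and just missed the threshold (-0.55 ± 0.16 SE, limma adjusted p = 0.0550). It passed by voom (adjusted p = 0.0242), with a mean of at least 5 FPKM (0.0420) and without KO replicate 3 (0.0302; 0.0242 to 0.185 over the alternatives). Rad23b and Nfe2l1 are 5733 and 5441 bases long, in the range where the median of all tested genes was -0.08. The tested subunit genes in that range, Psmc2, Psmd1, Psmd2, Psmd3, Psmd9 and Psmd11, were all on the higher side. Psma8 and Psmd7, at 1693 and 1599 bases, lie in the range where that median was 0.08. The part of length in these values was not tested. Pomp, the maturation factor of the core, was at 304, 327 and 341 FPKM against 331, 375 and 277 FPKM (0.01, 95% interval -0.26 to 0.28).

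Markers of other states and cells differed between the groups beside these values. The summed level of 12 proliferation genes was 1261 to 1386 FPKM in the WT-labelled libraries and 936 to 1114 FPKM in the KO-labelled ones, without overlap, and 7 of the 12 were called lower. That of 6 erythroid genes was 385 to 663 against 726 to 1370 FPKM, also without overlap, and 3 of the 6 were called higher. Of 4 genes of mast cells and basophils, 2 passed the test as higher. Cpa3 and Mcpt8 did not pass and overlapped, with log2 differences of 0.11 and -0.33 (limma adjusted p = 0.831 and 0.650). Cma1, a mast cell protease, was at 0, 0 and 0.447 FPKM against 12.0, 3.77 and 12.2 FPKM (limma adjusted p = 0.00213). Tpsb2, another such protease, was listed at 0 in all 3 WT-labelled libraries and at 3.46, 6.96 and 14.0 FPKM in the KO-labelled ones, on 27, 52 and 82 reads. The sum of the 4, mostly from Cpa3, was 51.5 to 83.6 against 58.6 to 123 FPKM. Neutrophil genes (6) summed to 659 to 688 against 442 to 1071 FPKM, mostly from Mpo. The other 5 neutrophil genes had values below 0 on the log2 scale, 3 of them at an unadjusted p under 0.05, and none of the 6 passed. Plasma and B cell genes (8) summed to 48.0 to 61.8 against 57.9 to 3282 FPKM. Igkc made up most of the sums in KO replicates 1 and 3. Of the 6 that were tested, 5 had differences above 0 and 1, Sdc1, below (-0.33), and none passed. Macrophage and dendritic cell genes (4) summed to at most 7.49 and 6.23 FPKM. The sums were lower in every KO-labelled library for 4 endothelial and stromal genes (19.3 to 27.9 against 14.6 to 17.2 FPKM) and for 3 T and NK cell genes (352 to 417 against 187 to 291 FPKM, nearly all from Nkg7). No listed marker was at 0 in every library. Ms4a1 (B cells) and Cd3d (T cells) were listed at 0 in all 3 KO-labelled libraries. They were near 0 in the WT-labelled ones too, with at most 3 reads for Ms4a1 and 1 for Cd3d, and were not tested. In KO replicates 1, 2 and 3, Psma8 was at 10.9, 10.9 and 13.1 FPKM and Igkc at 3182, 4.93 and 1173 FPKM. The part of proliferation and of erythroid, mast and plasma cells in the differences of Psma8 and Psmd5 was not tested. In sorted bulk RNA, fewer cells of a type and less RNA per cell cannot be told apart.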

How the data were processed

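Libraries were made from sorted LSK cells with the SMART-Seq v4 and Nextera XT kits, per the labels' protocols. These kits do not mark strand. The deposited table gives FPKM, scaled by the authors, for 1 column per library. Per the submitters' processing notes, TopHat2 (2.1.1), HTSeq (0.6.1), DESeq2 (1.18.1) and the build mm10 were used, in roles the notes leave out. The annotation was not given in the sources used here.

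Within each of the 17183 genes above 0 in 2 or more libraries, FPKM values stood to each other as whole numbers (relative tolerance 1e-9) after 1 divisor per library, which gave whole reads. A common factor can be missing in some genes, so reads are lower bounds there. Where needed, that factor was chosen so that the members' lengths came out as whole bases. Whole lengths are therefore no check of the reads.

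KO-labelled libraries (3) were set against WT-labelled ones (3) with limma 3.58.1 in R 4.3.3 (lmFit, eBayes with a trend) on log2(FPKM + 1). The 11371 genes averaging 1 FPKM or more entered, and their two-sided p-values were adjusted together by the Benjamini-Hochberg method (threshold 0.05). On this scale, differences of low genes are understated. Positions and shared 50-base stretches come from GENCODE M21 (GRCm38, which is mm10) and promoters from RefSeq. Scripts used Python 3.11.15.

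The members and lists were chosen with earlier results of these data known. Named genes are members that passed, Psmb5 to Psmb7, members near the receptors, and the highest and the most different gene of each role. Also named are pathway genes that passed, Nfe2l1, Pomp, Psmb8 to Psmb10 and members under the filter. Drd2 and Drd3 were named as an intended check of the labels, which they could not give. Of all these, 22 had a test. The 15 alternatives were a pseudocount of 0.1 FPKM, no filter, a mean of at least 5 FPKM, equal summed FPKM, trimmed-mean scaling, voom, a replicate block, a covariate for Y-linked RNA, each library left out, and KO replicates 1 and 3 left out together.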

Additional observations from a re-analysis of the deposited data

How the results depend on the processing

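Psma8 and Psmd5 were the 2 subunit genes called higher with all 6 libraries. The number was 1 (Psma8) with a pseudocount of 0.1 FPKM, with no filter on low values and with trimmed-mean scaling, 1 (Psmd7) without KO replicates 1 and 3, and 0 with the covariate for Y-linked RNA. It was 1 to 3 when each library was left out in turn. No subunit gene was called lower in any of the 15 alternatives. The median difference of the subunit genes was 0.16 with the covariate for Y-linked RNA and without KO replicates 1 and 3, which both rest on KO replicate 2, and -0.05 to 0.09 when each library was left out. Of all genes, 588 were called with no filter, 373 with the covariate for Y-linked RNA, 647 without KO replicates 1 and 3 and 386 to 1679 when each library was left out (531, 386 and 509 without WT replicates 1, 2 and 3), against 1240. Replicate numbers did not pair the libraries (correlation of same-numbered deviations -0.03, 0.05 and -0.12), and with a replicate block 1 subunit gene (Psma8) and 805 genes of all were called. Among the 22 named genes, which include Drd3, none that was called changed direction, and 8 that were not called changed sign in 29 results. The causes were not tested. Depth limits Psmb11 (at most 5 reads), while the other 39 had at least 56 reads in every library.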
